A study of Bos taurus with 4 samples.

Results

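Glycolysis, with the carriers that bring sugar into the cell and take lactate out of it, is described here by 37 genes, read in bovine early blastocysts from donors of 2 ages. The genes were listed by pathway, and each was read by the probe that the array's platform annotation names with its symbol; among several probes of a gene the one with the highest mean signal was used. Of the 37 genes, 33 had a named probe, out of 15216 named genes on the array, and 32 of these had a mean signal above the negative controls and were tested. SLC2A5, SLC2A12, GAPDH and PKM had no probe under their symbol and are not analysed here. Glyceraldehyde phosphate oxidation and the pyruvate kinase step were thus not read by any of the 37 genes. The isozyme genes GAPDHS and PKLR of these steps have probes but are not among the 37.

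Oocytes of Holstein heifers, taken after stimulation of the ovaries with FSH, went through maturation, fertilization and culture in vitro, and early blastocysts were pooled 168 hours after fertilization. On each of 4 arrays a heifer's pool from 11 months of age was set against her pool from 14 months, with a different heifer on every array. All donors were treated alike, with progesterone, aspiration of the dominant follicle and 6 injections of FSH, and semen of adult bulls was used, per the labels and the series' design text. The 11-month pool carried Cy5 on the arrays of heifers 1 and 2 and Cy3 on those of heifers 3 and 4. Age and the time of oocyte collection cannot be told apart, and how many embryos were pooled is not stated in the labels. In the series' design the cows also gave oocytes at 8 months of age. By that design the 14-month pool followed more earlier stimulations and collections than the 11-month pool. These cannot be told apart from age either. A ratio below is log2 of the signal at 11 months over that at 14 months, a positive value being a higher signal from the younger donor, and an error is the SD over the 4 heifers (n = 4).

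Glycolysis splits glucose into pyruvate in a preparatory phase that spends ATP and a payoff phase that regains it, and lactate dehydrogenase turns pyruvate and lactate into each other. The cleavage-stage mammalian embryo relies mainly on pyruvate and lactate, and glucose uptake and glycolysis rise towards the blastocyst stage, when the trophectoderm starts to pump fluid. Facilitative sugar carriers of the SLC2A family and proton-linked monocarboxylate carriers of the SLC16A family set which fuels can cross the membrane.

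The pools carried blastocyst transcripts. Of 10 trophectoderm markers with a probe, 9 were above background in all 8 channels, among them CDX2, GATA3 and KRT8, and so were 7 of 8 inner cell mass markers, among them NANOG, POU5F1 and SOX2. The summed linear signal of 13 cumulus and granulosa markers was 1987 to 2689 at 11 months and 1939 to 2390 at 14 months. Of these 13, CYP19A1, FSHR, HSD3B1, INHBA, STAR and TNFAIP6, 6 in all, were above background in all 8 channels, and AMH and FOXL2 in none. For 11 sperm and testis markers the sums were 1119 to 1438 and 1116 to 1211, with 1 marker, SPATA18, above background in all 8 channels and 4 (AKAP4, GAPDHS, ODF1 and PRM2) in none. In bulk pools, fewer cells of a type and less RNA per cell cannot be told apart.

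Of the 32 tested genes of the pathway, ENO1 alone (3.12%) had a mean change of at least 1.5-fold, against 1.55% of all tested genes. This gene, which encodes the widely expressed enolase of the payoff phase, had a 1.53-fold higher signal in the 11-month pools and was higher in all 4 heifers. SLC16A1, the main proton-linked carrier of lactate and pyruvate, was higher by 1.28-fold on average and in all 4 heifers, and PFKFB3, which makes the activator of phosphofructokinase, by 0.26 on the log2 scale on average and in 3 of 4. In limma no tested gene of the 32 had an adjusted p under 0.05, with Benjamini-Hochberg adjustment over 36447 probes, and neither did any other probe (0% of all). ENO1, SLC16A1 and PFKFB3 were higher with an unadjusted p under 0.05, 3 of the 32 or 9.38%, against 4.96% of all 13519 tested genes, and 0 were lower, against 5.15%.

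The pathway as a whole had no common direction. The median ratio of the 32 genes was 0.02, against 0.00 over all tested genes, and 17 genes were above and 15 below 0. The median over the genes was 0.07, -0.02, 0.02 and 0.01 in heifers 1 to 4, so that no heifer stood apart. The median SD over heifers was 0.25, close to the 0.22 of all genes, and larger than the mean ratio of most members. ENO1 and SLC16A1 were higher on all 4 arrays, or 6.25% of the 32 against 8.48% of all genes. ALDOC and FBP1 were lower on all 4, again 6.25%, against 7.94%.

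**Figure D1:**
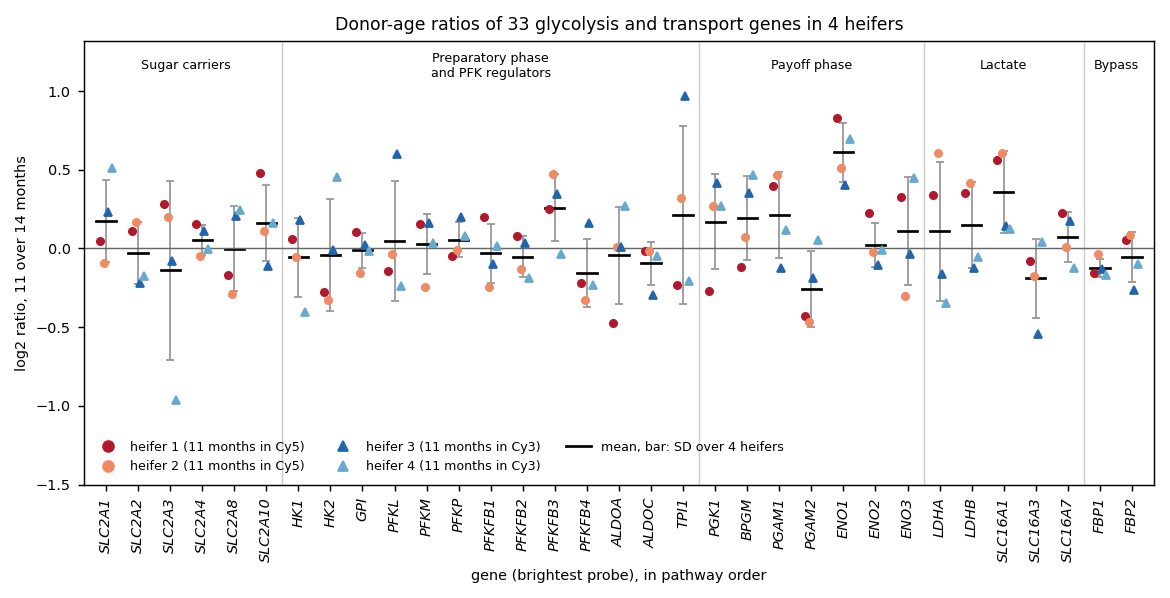
Ratio of 11 over 14 months (log2 axis) for each of the 33 genes with a probe, in pathway order; points are heifers, coloured by animal with circles where the 11-month pool carried Cy5 and triangles where it carried Cy3, black lines are means and bars the SD over 4 heifers. The 4 points of ENO1 lie between 0.40 and 0.83, while those of most other genes lie on both sides of 0; SLC16A7 is drawn but was not tested.

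Sugar carriers did not differ by age beyond the spread between heifers. SLC2A1, the ubiquitous glucose carrier, had ratios of 0.05, -0.09, 0.23 and 0.51 in heifers 1 to 4, with a mean of 0.18 ± 0.26. Its second probe, with a lower signal, was at -0.43, 0.23, 0.36 and -0.56, so that the probes of SLC2A1 shared their sign only in heifer 3. SLC2A3, a high-affinity glucose carrier of early embryos and neurons, was at 0.28, 0.20, -0.08 and -0.96, the widest spread of the 33 genes in the scanner-based ratios. In the authors' deposited ratios it was at 0.06, -0.12, 0.31 and -0.52, with an SD of 0.35, so that heifers 2 and 3 changed sign and TPI1 had a wider spread, with an SD of 0.57. The scanner-based mean of -0.14 ± 0.57 was set by heifer 4, and without that heifer it was 0.14. In the heifer with the lowest SLC2A3 ratio the brighter SLC2A1 probe thus had its highest ratio, but the dimmer one its lowest, -0.56. With the brighter probe the difference between the log2 ratios of these carriers was 1.48 in heifer 4, against -0.24, -0.29 and 0.32 in heifers 1 to 3. From the deposited ratios it was 1.09 in heifer 4 and 0.06, -0.04 and -0.10 in the others.

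The other sugar carriers had dimmer probes or no mean difference. SLC2A8, an intracellular glucose carrier also described in blastocysts, had a mean of -0.00 ± 0.27 from ratios of -0.17 and -0.29 in heifers 1 and 2 and 0.21 and 0.24 in heifers 3 and 4. SLC2A10 was at 0.16 ± 0.24, and its probe was above background in 3 heifers at each age. The hepatic carrier SLC2A2 was at -0.03 ± 0.20, and its probe was above background at 11 months in 2 of 4 heifers and at 14 months in 3. SLC2A4, the insulin-responsive carrier of muscle and fat, was at 0.05 ± 0.10 and above background in 2 heifers at each age. For these dim probes a ratio near 0 says little about the transcript.

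The preparatory phase had a median ratio of -0.01 over 9 tested genes. At an unadjusted p under 0.05, 0 were higher, against 4.96% of all genes, and 0 lower, against 5.15%, so that the count does not set this phase apart. HK1 and HK2 encode the hexokinases that trap glucose as its phosphate. HK1 was at 0.06, -0.06, 0.18 and -0.40 and HK2 at -0.28, -0.33, -0.01 and 0.45 in heifers 1 to 4, with means of -0.06 ± 0.25 and -0.04 ± 0.36. In heifer 4 the brightest probes of these isozymes were at opposite ends, HK1 lower and HK2 higher at 11 months. The difference between their log2 ratios was -0.86 there, whereas in heifers 1 to 3 it was 0.34, 0.27 and 0.19. A dimmer HK1 probe was at 0.17 ± 0.21, and dimmer HK2 probes were at -0.02 ± 0.11 and 0.08 ± 0.23. In heifer 4 these dimmer probes had the same signs but smaller ratios, -0.10 for HK1 and 0.04 and 0.26 for HK2. GPI, which isomerizes glucose phosphate to fructose phosphate, was at -0.01 ± 0.11 by its brighter probe and at -0.25 ± 0.26 by the dimmer one. The brighter probe had one of the smallest spreads in the pathway in the scanner-based ratios, and an SD of 0.18 in the deposited ones.

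Phosphofructokinase, the committed step, has 3 subunit genes, and none differed on average. PFKL, the liver-type subunit, was at -0.14, -0.03, 0.60 and -0.24, so that heifer 3 alone was high, and its mean was 0.05 ± 0.38. PFKM, the muscle type, was at 0.15, -0.25, 0.16 and 0.04, with a mean of 0.03 ± 0.19. PFKP, the platelet type, was at -0.05, -0.01, 0.20 and 0.08, with a mean of 0.06 ± 0.11. Below this step the aldolase genes ALDOA at -0.04 ± 0.31 and ALDOC at -0.09 ± 0.14 were near 0. TPI1, the triose phosphate isomerase, was at -0.23, 0.32, 0.97 and -0.21, a mean of 0.21 ± 0.57 that was -0.04 without heifer 3. Heifer 3 had the highest ratio both for PFKL and for TPI1.

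The 4 PFKFB genes encode bifunctional enzymes that make and remove the signalling form of fructose bisphosphate, an allosteric activator of phosphofructokinase; PFKFB3 is the isoform with the strongest kinase activity. PFKFB3 had ratios of 0.25, 0.47, 0.35 and -0.03 in heifers 1 to 4, and a mean of 0.26 ± 0.21 with an adjusted p = 0.523 in limma. Its normalized log2 signals at 11 months were 7.53, 7.77, 8.87 and 7.67, against 7.27, 7.30, 8.52 and 7.70 at 14 months. Heifer 3 was thus the highest at both ages by more than any age difference, and the ages overlapped. PFKFB3 kept an unadjusted p under 0.05 in 4 of 12 alternatives and lost it among others with the authors' ratios, where its mean was 0.30, and without heifer 1, 2 or 3. PFKFB4, inducible by hypoxia in other cells, was at -0.15 ± 0.22, and the log2 ratio of PFKFB3 was above that of PFKFB4 in all 4 heifers, by 0.47, 0.80, 0.19 and 0.20. PFKFB1 and PFKFB2 were at -0.03 ± 0.19 and -0.05 ± 0.13.

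In the payoff phase 6 of 7 tested genes had a mean above 0, against 50.6% of all genes, and the median ratio was 0.17. With an unadjusted p under 0.05, 1 of the 7 was higher, against 4.96% of all genes. The array medians of these 7 genes were 0.22, 0.07, -0.03 and 0.27 in heifers 1 to 4, so that heifer 3 did not share the direction. PGK1, which makes the first ATP of this phase, was at -0.27, 0.27, 0.41 and 0.27, higher in 3 of 4 heifers, with a mean of 0.17 ± 0.30. BPGM, which diverts an intermediate into bisphosphoglycerate, was at -0.12, 0.07, 0.35 and 0.47, a mean of 0.19 ± 0.27. Its higher values were both from heifers whose 11-month pool carried Cy3.

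The phosphoglycerate mutase genes had means of opposite sign. PGAM1, the isoform of most tissues, was at 0.40, 0.47, -0.13 and 0.12, a mean of 0.21 ± 0.27. PGAM2, the muscle isoform, was at -0.43, -0.47, -0.19 and 0.05, a mean of -0.26 ± 0.24 and the lowest of the 32 tested genes. The difference between their log2 ratios was 0.83 and 0.93 in heifers 1 and 2 and 0.06 and 0.07 in heifers 3 and 4, so that in these ratios it was large in one dye orientation and near 0 in the other. From the deposited ratios the difference was 0.66, 0.76, 0.35 and 0.40, above 0 in both orientations. For PGAM1 the authors' deposited ratios were 0.23, 0.33, 0.14 and 0.52, positive on all 4 arrays, so that the sign in heifer 3 differed between the deposited ratios and those made from the scanner signals. With these deposited ratios PGAM1 had an unadjusted p under 0.05.

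ENO1 carried the largest age ratio of the pathway. Its ratios were 0.83, 0.51, 0.40 and 0.69 in heifers 1 to 4, a mean of 0.61 ± 0.19 with an adjusted p = 0.388 in limma. The normalized log2 signals were 10.82, 10.32, 10.46 and 10.10 at 11 months and 9.99, 9.80, 10.06 and 9.40 at 14 months, so that the lowest signal of the younger age lay just above the highest of the older one. Signals of the ages did not overlap in this way, with 11 months higher, for ENO1 and SLC16A1, 2 of the 32 genes, against 1.08% of all genes, and with 11 months lower for 0, against 1.58%. Both dye orientations gave a similar value, 0.67 in heifers 1 and 2 and 0.55 in heifers 3 and 4. The authors' deposited ratios averaged 0.63 ± 0.25.

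The other ENO1 probe was not as far from 0. This probe, dimmer, was at -0.21, 0.43, 0.11 and 0.15, a mean of 0.12 ± 0.26 with the opposite sign in heifer 1, and the mean of both probes was 0.37. The neuronal enolase ENO2 at 0.02 ± 0.14 and the muscle enolase ENO3 at 0.11 ± 0.34 lay near 0. The log2 ratio of ENO1 was above that of ENO2 by 0.59 ± 0.09 and above that of ENO3 by 0.50 ± 0.24, in all 4 heifers, though ENO2 was above background in only 3 heifers at 11 months and 2 at 14 months.

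**Figure D2:**
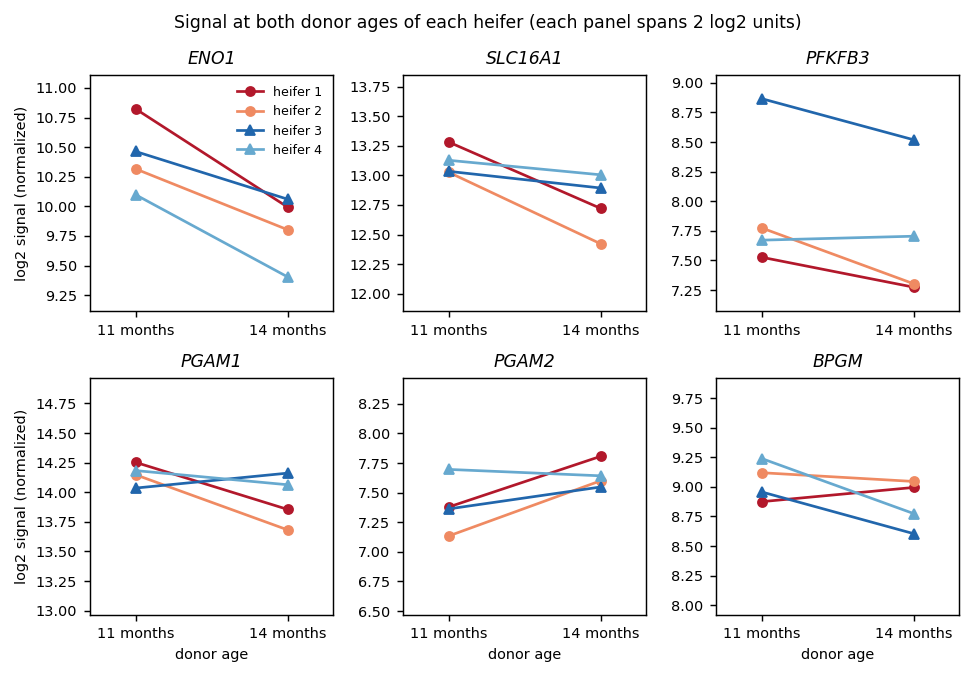
Normalized log2 signal of 6 genes at donor ages of 11 and 14 months; each line joins the pools of 1 heifer, with circles and triangles for the dye orientations, and each panel spans 2 log2 units around its own range. All 4 lines fall from 11 to 14 months for ENO1 and SLC16A1, while in the other panels at least 1 heifer goes the other way.

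Lactate dehydrogenase genes, read by the brightest probe of each, had opposite signs in the 2 dye orientations in the scanner-based ratios. LDHA, the subunit that favours lactate formation, was at 0.34 and 0.61 in heifers 1 and 2 and at -0.16 and -0.35 in heifers 3 and 4, a mean of 0.11 ± 0.44. LDHB, the subunit that favours lactate oxidation, was at 0.35, 0.42, -0.12 and -0.06, a mean of 0.15 ± 0.28. The LDHA ratio differed from the LDHB ratio by -0.02, 0.19, -0.04 and -0.29. In the authors' deposited ratios heifer 4 was at -0.25 for LDHA and at 0.27 for LDHB, so that the subunits had opposite signs there and LDHB did not split by orientation. A second LDHA probe of similar brightness had ratios of 0.08, 0.66, 0.06 and -0.18. Heifer 2 was thus high on both probes, but this probe did not split by orientation, as heifer 3 was above 0. Of the 32 genes, LDHA by its brightest probe had the lowest adjusted p for a difference between orientations, 0.101 in limma, against 0.337 for its second probe.

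SLC16A1 exports or imports lactate and pyruvate with a proton and is the one monocarboxylate carrier here with a higher signal at 11 months in every heifer. The ratios were 0.56 and 0.60 in heifers 1 and 2 and 0.14 and 0.12 in heifers 3 and 4, a mean of 0.36 ± 0.26 with an adjusted p = 0.442 in limma. Normalized log2 signals were 13.28, 13.03, 13.03 and 13.13 at 11 months, and at 14 months 12.72, 12.42 and 12.89 in heifers 1 to 3. Heifer 4 had the highest signal at 14 months, just below the lowest at 11 months, so that the ages did not overlap but nearly met. Of its other probes one had the same mean, 0.36 ± 0.39, with heifer 3 at -0.03, and the third, the dimmest, was at 0.06 ± 0.41 with heifer 3 at -0.46. SLC16A1 kept an unadjusted p under 0.05 in 8 of 12 alternatives and lost it with median centring, with the mean over its probes, and without heifer 1 or heifer 2.

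The other lactate carriers and the bypass enzymes of gluconeogenesis had mean ratios below 0 or a probe at background. SLC16A3, a carrier known for lactate export from glycolytic cells, was at -0.08, -0.18, -0.54 and 0.04, a mean of -0.19 ± 0.25, and its log2 ratio lay below that of SLC16A1 in all 4 heifers, by 0.08 to 0.78. SLC16A7, a carrier with high affinity for pyruvate, did not pass the filter on dim probes: it was above background at 11 months in 0 heifers and at 14 months in 1. FBP1 and FBP2, the fructose bisphosphatases that oppose phosphofructokinase, were at -0.12 ± 0.06 and -0.06 ± 0.16. FBP1 was lower at 11 months in all 4 heifers, at -0.16, -0.04, -0.13 and -0.17. Its SD was the smallest of the 33 genes in the scanner-based ratios. In the deposited ratios FBP1 was at -0.17, -0.05, -0.15 and -0.44, with an SD of 0.17, and SLC2A4 had a smaller one, 0.13. The FBP1 probe was above background in 2 heifers at 11 months and 4 at 14 months, and the FBP2 probe in 3 at each age.

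Which dye the 11-month pool carried goes with which heifers were used, so that dye and heifer cannot be told apart here. Of the 32 genes, 5 (SLC2A2, SLC2A3, LDHA, LDHB and FBP2) were higher at 11 months in heifers 1 and 2 and lower in heifers 3 and 4, against 11.7% of all genes. SLC2A8 and PFKP, 2 of the 32, had the reverse pattern, against 12.2%. In the deposited ratios SLC2A2, LDHA and FBP2 had the first pattern, against 12.2% of all genes, and SLC2A8, PFKP and ALDOA the reverse, against 11.6%. Splits by orientation were thus about as frequent among the 32 genes as over all genes. For the orientation term in limma 0 of the 32 reached an adjusted p under 0.05, against 1.6% of all genes. Trophectoderm markers differed by orientation too. The median ratio of 10 such genes was 0.55 and 0.44 in heifers 1 and 2 and -0.07 and -0.05 in heifers 3 and 4. For 8 inner cell mass markers the medians were 0.11, -0.08, 0.25 and 0.01 in heifers 1 to 4. Those of 5 primitive endoderm markers were 0.07, 0.17, -0.07 and 0.03. The part of cell types in the ratios of the pathway was not tested. Over the 32 genes, which share arrays and are not replicates, the ratios correlated at r = 0.57 between heifers 1 and 2 and at 0.14 between heifers 3 and 4, and at -0.11 to 0.20 between heifers of opposite orientation. Over all 13519 genes the same pairs gave 0.58 and 0.27, and -0.18 to 0.17.

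When the fit was given a dye effect for each gene, which takes the orientation difference out of the residual spread, 5 genes were higher by the same unadjusted criterion, against 8.12% of all genes: ENO1, SLC16A1, PFKFB3, PGAM1 and BPGM. PGAM2 was then the 1 lower gene, against 10% of all genes. Even in this fit the lowest adjusted p was 0.0669, for ENO1, followed by 0.0971 for SLC16A1. PGAM1 was at 0.43 in heifers 1 and 2 and at -0.00 in heifers 3 and 4, and BPGM at -0.02 and 0.41, so that in the scanner-based ratios each mean came from one orientation. In the deposited ratios this held for BPGM, at 0.04 and 0.42, but not for PGAM1, at 0.28 and 0.33.

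**Figure D3:**
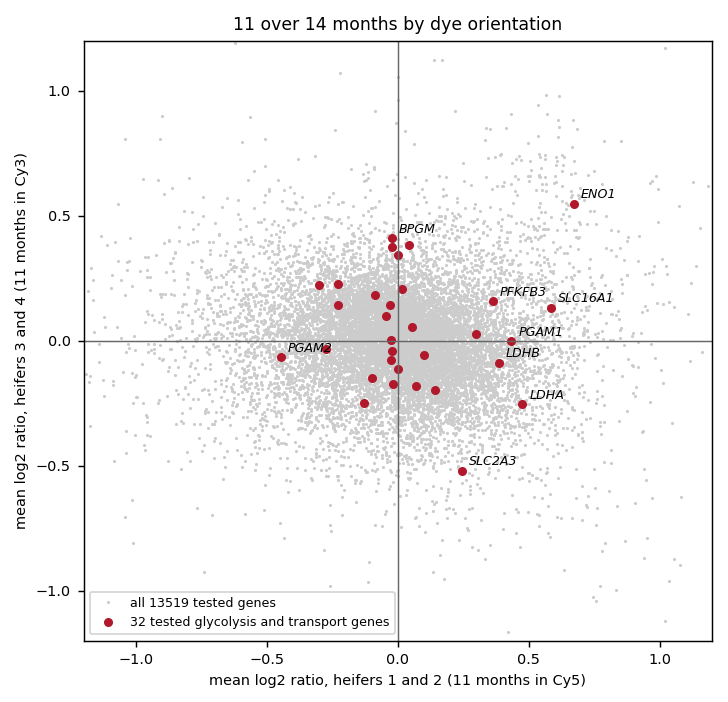
Mean log2 ratio in heifers 1 and 2 (11-month pool in Cy5, x axis) against that in heifers 3 and 4 (11-month pool in Cy3, y axis) for all 13519 tested genes in grey and the 32 pathway genes in red; 101 genes lie outside the axes. ENO1 lies at the upper right, LDHA and SLC2A3 lie at the lower right, and PGAM1 and BPGM each lie along one axis in these scanner-based ratios.

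Other genes of the pathway, taken from lists beside the 37, gave 0 higher and 2 lower among 14 tested isozymes and gluconeogenic enzymes at an unadjusted p under 0.05, against 4.96% and 5.15% of all genes. These were G6PC3, a glucose-6-phosphatase, at -0.37 ± 0.24, and PCK2, the mitochondrial PEP carboxykinase, at -0.48 ± 0.41, both lower in all 4 heifers. Among 14 further sugar and monocarboxylate carriers 0 were higher and 0 lower, and SLC16A12 had the smallest unadjusted p, at 0.14 ± 0.16. SLC2A6, a lysosomal hexose carrier that is named for its pattern, chosen once its values had been seen, was at -2.11, -1.55, 0.55 and 0.92 in heifers 1 to 4, with an adjusted p = 0.0156 in limma for the difference between dye orientations. Its mean of -0.55 lies far from the values of either orientation.

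A further list joined regulators of glycolytic genes with genes induced by hypoxia. Of its 20 tested genes, 2 were higher with an unadjusted p under 0.05 and 1 was lower, against 4.96% and 5.15% of all genes. PRKAA1, a catalytic subunit of AMP-activated kinase, was at -0.03, 1.02, 1.11 and 0.17, a mean of 0.57 ± 0.58 set by heifers 2 and 3. SP1, a general activator of housekeeping promoters, was at 0.22 ± 0.10 and higher in all 4 heifers. BNIP3, a mitophagy receptor induced by hypoxia, was at -0.47, -1.77, -0.53 and 0.09, a mean of -0.67 ± 0.79. Of 11 glycogen genes 0 were higher and 0 lower, and the kinase gene GSK3A had the smallest unadjusted p, at -0.35 ± 0.46. None of these genes passed the adjusted threshold.

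The means were compared under 14 other settings. ENO1 had an unadjusted p under 0.05 in all 12 of those that allow a test, with means of 0.37 to 0.63 over processing settings and 0.54 to 0.68 without 1 heifer, and adjusted p-values from 0.0669 to 1.00. The authors' deposited ratios and those made from the scanner signals had the same mean sign for 32 of 33 genes; the exception, SLC2A8, was at 0.05 in the deposited ratios. Of 132 values per gene and array 7 differed in sign, and 2 of these, for PGAM1 and SLC2A3, were at least 0.1 from 0 in both versions.

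**Figure D4:**
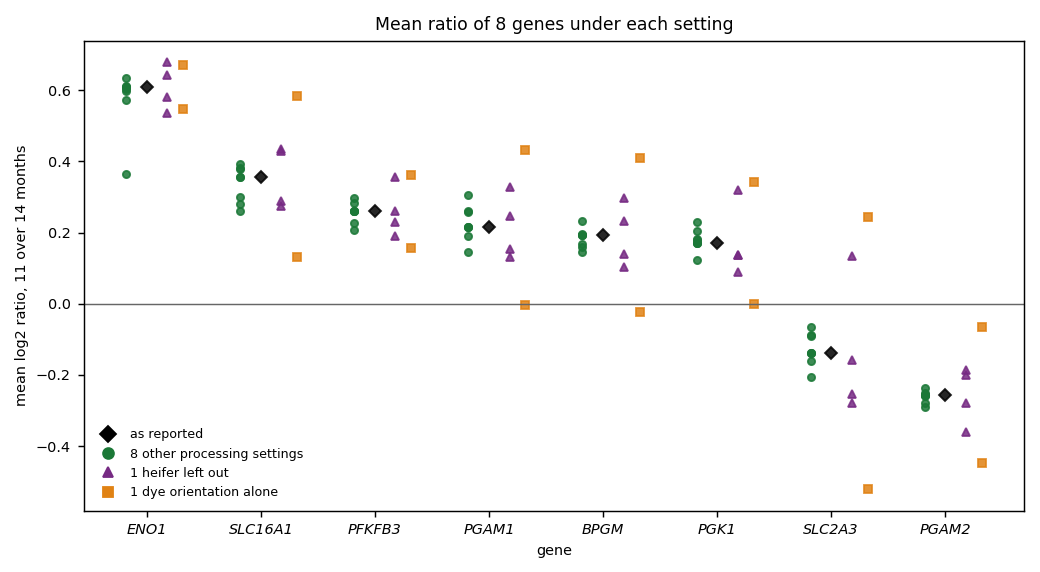
Mean log2 ratio of 11 over 14 months for 8 genes as reported (black), under 8 other processing settings (green), with 1 heifer left out (purple) and in 1 dye orientation alone (orange). ENO1 stays at 0.37 or above throughout, SLC2A3 changes sign without heifer 4, and PGAM1 and BPGM reach values near 0 in one orientation.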

How the data were processed

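Per the labels' protocols, RNA of embryo pools was amplified linearly in 2 rounds and labelled chemically with Cy3 or Cy5. Amplification can alter relations between transcripts. Per the file headers, the scanner files hold uncorrected spot and local background intensity for both channels; no label or header names the scanner or its software. The authors also deposited normalized log2 ratios in a table and a series matrix. The table ran Cy5 over Cy3; the matrix held the same values within 5e-06, all turned to 11 over 14 months. Against background-subtracted, loess-normalized scanner ratios their r was 0.985 to 0.993 and their slope 0.891 to 1.08, so that base 2 was assumed. Against the scanner-based ratios reported here r was 0.989, 0.960, 0.968 and 0.914 in heifers 1 to 4, with slopes of 1.07 to 1.39. Over the pathway genes with a probe r was 0.971, 0.959, 0.940 and 0.900. The authors' background and normalization methods stay unknown. Matrix medians were 0.00853, 0.00336, 0.00104 and 0.0234.

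Median signals were corrected by normexp with an offset of 50, which shrinks ratios of dim probes, and ratios were loess-normalized within arrays with 1426 control and blank spots at weight 0 (R 4.3.3, limma 3.58.1; plots with matplotlib 3.10.9). A probe was tested if its mean log2 signal lay more than 2 SD above the mean of 153 negative control spots (36447 of 43794). The same limit per channel defined "above background". Normalized signals were taken per channel after loess and Aquantile scaling; signals of different probes are not comparable. lmFit and eBayes were run on 4 ratios per probe, two-sided, with 3 residual and 3.71 prior degrees of freedom. Flipping signs exactly over 4 values gives p-values no lower than 0.125. The 4 arrays appear to share 1 slide, and only if they do is slide no batch.

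Symbols came from the platform annotation, which names 21790 probes with 1 symbol, 0 with several and leaves 22004 unnamed. For 20025 probes the symbol was current in the ARS-UCD2.0 gene table, for 1524 it was updated by synonym and for 241 it was kept. Each heifer's pools share an array, so that the ratio is paired. The genes, lists and tests were chosen with earlier results of these data known. Values per heifer are given for genes with an unadjusted p under 0.05 with or without a dye term, at least 1.25-fold with 1 sign on all arrays, among the 5 largest SDs, with probes of opposite sign, or at regulated steps; PGK1, SLC2A8, SLC16A3, ALDOC, FBP1 and SLC2A6 are also given, chosen after their values were seen. Alternatives were other background corrections, mean signals, median centring, no filter, the authors' ratios, a dye term, the mean over probes, each heifer left out and each dye orientation alone. The fit was tested on simulated data with independent noise and no difference between dye orientations. The measured ratios correlated between heifers of 1 orientation, a setting that this simulation does not cover.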

Additional observations from a re-analysis of the deposited data

Results flagged for a closer look

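One value stood far from the other 3 heifers of its gene: the log2 ratio of ALDOC in heifer 3 was -0.30, against -0.02, -0.02 and -0.05 in the others, and its gap to the nearest of them was 0.90 of the whole range, above Dixon's critical value for 4 values. The probe was above background in all 8 channels. The authors' deposited ratio for this heifer was -0.35, against -0.02, -0.02 and -0.09 in the others, which were more spread than in the scanner-based ratios. Such a rule was applied to the scanner-based ratios of 33 genes, not to the deposited ones, and marks about 1 in 20 by chance.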

How the results depend on the processing

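With an unadjusted p under 0.05 as the criterion, 3 of the 32 genes were higher and 0 lower. The higher count was 1 with median centring in place of loess (ENO1) and 5 with a gene-specific dye term, and the lower count was 2 with mean foreground signals (ALDOC and PGAM2) and 1 with the dye term (PGAM2). Leaving out 1 heifer gave 1 to 3 higher, the 1 being without heifer 2, and 0 to 1 lower, the 1 being PGAM2 without heifer 4. The median ratio of 0.02 was 0.00 to 0.04 under other processing, -0.00 to 0.06 without 1 heifer and -0.01 and 0.01 in single orientations. PGAM1 was at -0.0032 in heifers 3 and 4 alone and BPGM at -0.023 in heifers 1 and 2 alone; SLC2A3 was at 0.14 without heifer 4 and TPI1 at -0.04 without heifer 3. No gene of the 32 passed the adjusted threshold under any of 12 alternatives with a test. Within 1 orientation age and dye cannot be told apart, and no test was made. The number of arrays, 4, and probes near background limit the precision.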
